A study of Polyandrocarpa zorritensis and Clavelina lepadiformis with 36 samples.

Results

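The subject is the alpha subunit of hypoxia-inducible factor and the 2 oxygen-dependent enzymes that hydroxylate it, in 2 colonial tunicates, *Polyandrocarpa zorritensis* and *Clavelina lepadiformis*. The members were the rows of the deposited ortholog sheet that carried the human entry names HIF1A_HUMAN, EGLN1_HUMAN or HIF1N_HUMAN. Each name stood in 1 row, so 3 of 4424 ortholog pairs were taken. All transcripts that the assembler Trinity placed in the same gene were then collected and summed. This gave 6 genes of 36119, with 9 of 27938 transcripts in *P. zorritensis* and 4 of 18610 in *C. lepadiformis*. The sheet lists only pairs for which the authors called at least 1 stage up and at least 1 down in both species, so all 3 pairs were already known to vary between stages.

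RNA was sequenced from 36 samples, 18 per species, to compare dormancy with the other asexual stages. Zooids, stolons, pre-buds (the budding nest of *P. zorritensis* and the budding chamber of *C. lepadiformis*) and dormant tissue had 3 samples each per species. Germinating tissue, which GEO's labels call activated, had 6 per species: after 48 h of germination, 3 came from 18 °C and 3 from 24 °C. Each sample pooled tissue of at least 3 specimens. Both species were collected in the harbour of La Spezia, no drug or genetic change is stated, and ages are not given. Dormant spherules of *P. zorritensis* were frozen straight from the field in spring, while its zooids, stolons and pre-buds grew in the laboratory from the same rope. In that species dormancy and field collection therefore cannot be told apart. All tissue of *C. lepadiformis* came from 1 laboratory colony.

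The values are TPM, a level per transcript length, that the authors scaled between libraries and averaged over the samples of a stage, here called scaled TPM. With 1 mean per stage, no spread between samples is known, so no difference below has an error or a test. Whether stages that are neighbours in an order of levels differ cannot be judged from these means. Because tissue was extracted in bulk, more cells that carry a transcript and more transcript per cell cannot be told apart. The depth per sample is unknown.

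HIF-alpha is a transcription factor of the bHLH-PAS family that pairs with a stable partner, ARNT, and switches on genes of glycolysis, oxygen supply and low-oxygen survival. In mammals its protein is made and destroyed continuously when oxygen is present. EGLN1, also called PHD2, hydroxylates prolines of HIF-alpha, and the modified protein is bound by the VHL ubiquitin ligase and degraded. HIF1N, also called FIH, hydroxylates an asparagine of HIF-alpha and thereby blocks its contact with the coactivators p300 and CBP. Both enzymes need oxygen and 2-oxoglutarate, and HIF activity is set largely at the protein level, which RNA does not measure.

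After the authors' scaling, the values of a stage did not add up to the same total. In *P. zorritensis* they summed to 1570747 in dormant tissue and to between 687867 and 1039981 in the other 4 stages. The 10 most abundant transcripts held 24% of the dormant total and 9.85% to 14.8% of the others. In *C. lepadiformis* the largest total was 1274782, in germinating tissue, against 741785 to 845295 in the others. Setting all stages to equal totals shifted the median difference of all genes between dormant tissue and zooids of *P. zorritensis* by -1.21 on the log2 scale. Member levels are therefore given as deposited, with the equal-totals value where it matters, and with ratios between members of 1 stage, which no scaling can alter. As a check of the labels, all pairs of the cilia list with a mean of at least 5 were highest in zooids, which have ciliated gills. These were 7 pairs in *P. zorritensis*, and 8 pairs for *C. lepadiformis*, with median dormancy scores (dormant tissue minus the average of the other stages, log2) of -1.07 and -1.22. Their summed level was 285 and 335 in zooids and at most 9.93 and 3.41 in the other stages, dormant tissue included. Of the pairs named for digestive enzymes, 8 of 13 in the first species were highest in zooids and 6 of 14 in the second, with median scores of -0.44 and -1.03. Their summed level in *P. zorritensis* was highest in dormant tissue, at 9064 against 627 to 6558, and AMYP, an amylase, made up 8982 of it. The list without AMYP was highest in zooids there, at 606, and lowest in dormant tissue, at 82.2. In *C. lepadiformis* the whole list was highest in zooids, at 9439 against 319 to 964. The part of these genes' cells in the values below was not tested.

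HIF1A was among the most abundant genes of *P. zorritensis* in every stage and was highest in dormant tissue. The sum of its 6 transcripts was 1251 scaled TPM in dormant tissue. It was 462 in pre-buds, 453 in stolons, 423 in germinating tissue and 416 in zooids. The other 4 stages thus lay within a narrow band, and dormant tissue stood 2.71-fold above the next stage. HIF1A exceeded 99.4% of all genes of the species in dormant tissue and 98.8% to 99.1% in the other stages. With equal totals the sum was 796 in dormant tissue, 604 in zooids, 562 in stolons, 497 in pre-buds and 406 in germinating tissue, so dormant tissue stayed highest but by 1.32-fold over zooids.

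The 6 HIF1A transcripts of *P. zorritensis* did not share the dormant level evenly. Transcript i32 had 362 scaled TPM in dormant tissue and 57.1 to 64.6 in the other 4 stages, a ratio of 5.60 to 6.33. Transcript i10, the one paired with *C. lepadiformis* in the sheet, had 231 in dormant tissue and 48.7 to 63.7 elsewhere. The most abundant transcript, i31, had 482 in dormant tissue and 215 to 251 elsewhere, a ratio of 1.92 to 2.24. Transcript i16 had 168 in dormant tissue and 73.4 to 88.4 elsewhere, a ratio of 1.90 to 2.29. The remaining pair was scarce: i15 had 6.24 in dormant tissue and at most 0.391 elsewhere, and i26 had 1.79 in dormant tissue and 0.378 to 2.05 elsewhere. All these levels are as deposited. Equal totals lower each ratio of dormant tissue to zooids by the factor that took the gene sum from 3.01-fold to 1.32-fold. By that factor i31 and i16 would stand below zooids in dormant tissue, while i32 and i10 would stay above.

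Isoform shares describe the same pattern without any scaling between stages. Transcript i32 made up 28.9% of HIF1A in dormant tissue and 13.5% to 14.3% in the other stages, while i31 made up 38.5% and 51.7% to 57.3%. As deposited, the excess of dormant tissue over the mean of the other 4 stages was 812 scaled TPM. Of it i32 carried 37.1%, i31 30.3%, i10 21.3% and i16 10.5%. Unlike the shares, this split depends on the scaling between stages. The largest shift of a HIF1A share between dormant tissue and the mean of the others was 15.4 percentage points. Among 2746 genes of *P. zorritensis* with at least 2 transcripts and a sum of at least 5 in every stage, 15% had a shift as large, and the median was 5.37 points. Kallisto divides reads that several isoforms share by estimation, so isoform levels are less certain than their sum.

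**Figure D1:**
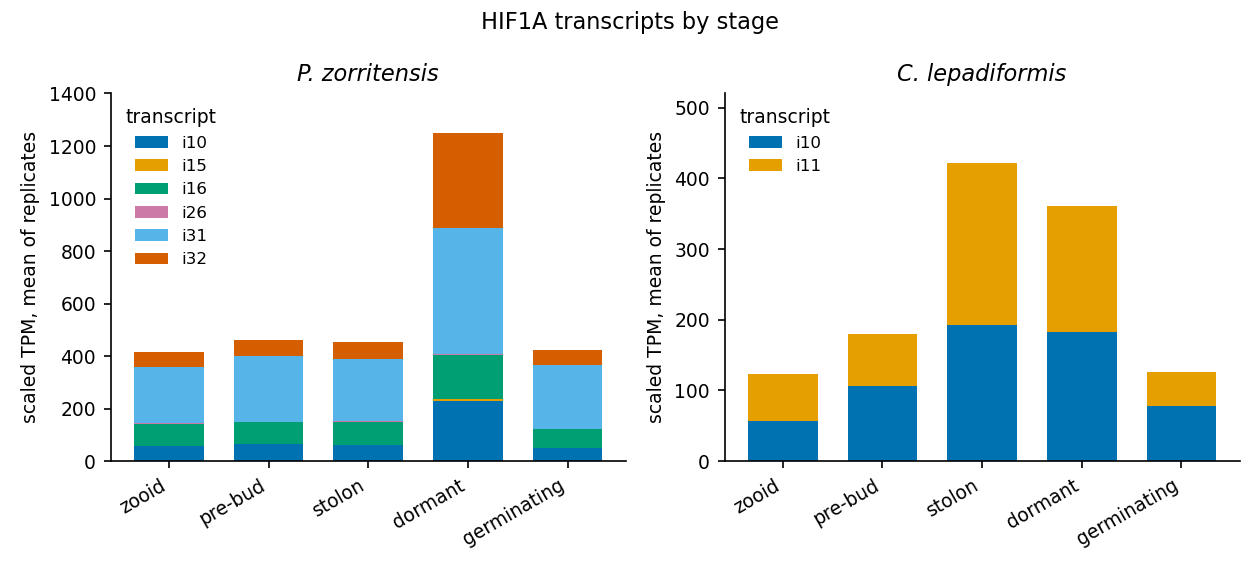
Stacked bars give the authors' mean scaled TPM (y axis, linear, with a different range for each species) of each HIF1A transcript in the 5 stages (x axis), *P. zorritensis* left and *C. lepadiformis* right; the height of a bar is the gene sum, and no error is known. In *P. zorritensis* the dormant bar reaches 1251 and the others 416 to 462, and in *C. lepadiformis* the stolon bar (421) stands above the dormant one (361).

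In *C. lepadiformis* HIF1A was highest in stolons, not in dormant tissue. The sum of its 2 transcripts was 421 scaled TPM in stolons, 361 in dormant tissue, 180 in pre-buds, 125 in germinating tissue and 123 in zooids. Stolon and dormant tissue thus formed a high pair, and zooids and germinating tissue a low pair, with pre-buds between them. Dormant tissue was 2.92-fold above zooids and 2.88-fold above germinating tissue, and 0.856 times the stolon level. With equal totals the order of the first 2 stages was the same, at 568 and 447. The 2 transcripts were about equally abundant. Transcript i10 made up 45.7% to 62.5% of the gene over the stages, with 50.8% in dormant tissue, and its largest shift, 2.49 points between dormant tissue and the mean of the others, was reached by 72.7% of 2886 genes.

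HIF1N had its highest level in dormant tissue in both species. In *P. zorritensis* the sum of its 2 transcripts was 84.8 scaled TPM in dormant tissue, 37.6 in germinating tissue, 30.0 in zooids, 29.6 in pre-buds and 27.6 in stolons. The dormant level was 2.26 to 3.07 times the others as deposited, and 1.24 to 1.69 times with equal totals. In *C. lepadiformis* its single transcript had 53.6 in dormant tissue, 34.4 in stolons, 15.3 in zooids, 14.1 in pre-buds and 7.90 in germinating tissue. Dormant and stolon tissue again held the 2 highest levels, and germinating tissue the lowest. The ratio of dormant to germinating tissue was 6.78. With 1 added to each mean the log2 difference was 2.62, and only 0.525% of 8956 genes had one as large.

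Most of the dormant excess of HIF1N in *P. zorritensis* came from the transcript that the sheet does not name. Transcript i4 had 35.1 scaled TPM in dormant tissue, 6.98 in germinating tissue, 4.37 in zooids, 3.07 in stolons and 1.61 in pre-buds. It made up 41.4% of the gene in dormant tissue and 5.43% to 18.6% elsewhere. With the deposited scaling it carried 58% of the excess over the mean of the other stages. Transcript i3, the one in the sheet, had 49.7 in dormant tissue and 24.5 to 30.6 elsewhere, a ratio of 1.62 to 2.03 as deposited. With equal totals i3 would stand below zooids in dormant tissue. On i3 alone, with 1 added to each mean before logs are taken, HIF1N is not 2-fold above any other stage. A share shift as large as that of HIF1N, 29.0 points, was seen in 3.68% of the 2746 genes. The open reading frame of i4 carries the suffix p2, while those of the other 12 member transcripts carry p1. The protein it encodes was not analysed here.

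EGLN1 was nearly level across the stages of *P. zorritensis*. Its single transcript had 16.1 scaled TPM in germinating tissue, 15.4 in dormant tissue, 14.3 in zooids, 13.2 in stolons and 12.0 in pre-buds. The highest stage was 1.34 times the lowest, and only 3.35% of 16726 genes with a mean of at least 5 in some stage had a range that narrow. With equal totals dormant tissue became the lowest stage, at 9.81 against 12.9 to 20.7. In *C. lepadiformis* EGLN1, like HIF1N, had its highest levels in dormant and stolon tissue, with 52.5 in dormant tissue, 43.4 in stolons, 34.9 in germinating tissue, 27.9 in zooids and 25.8 in pre-buds. There the highest stage was 2.03 times the lowest.

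**Figure D2:**
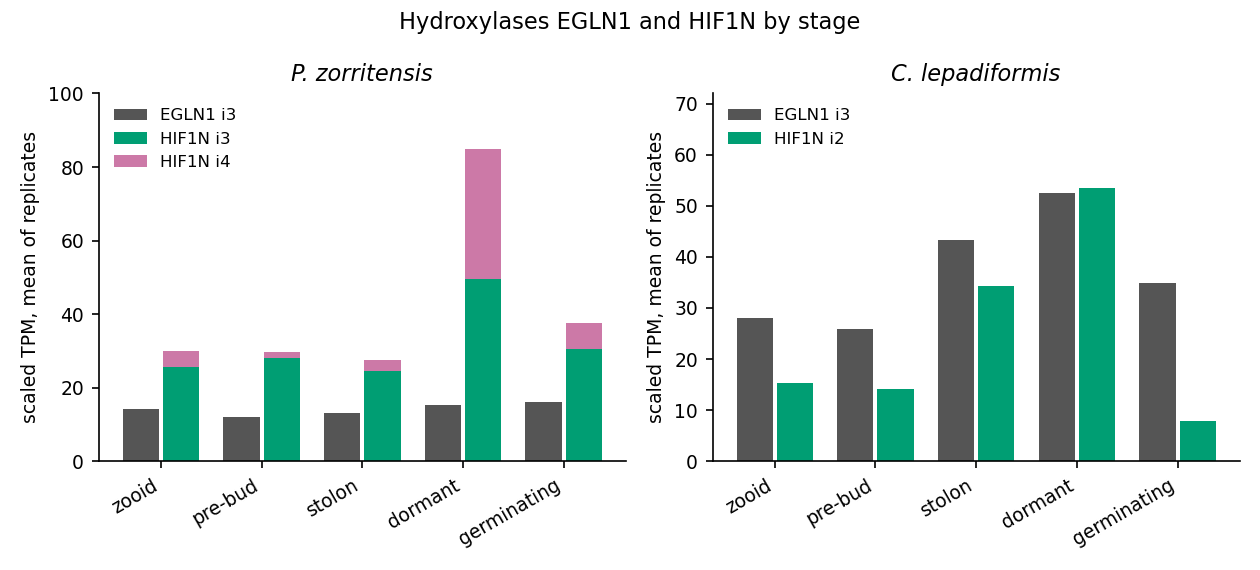
Bars give the authors' mean scaled TPM (y axis, linear, with a different range for each species) of EGLN1 (grey) and HIF1N (green and pink, its transcripts stacked) in the 5 stages (x axis), without errors. In *P. zorritensis* EGLN1 stays between 12.0 and 16.1 while HIF1N reaches 84.8 in dormant tissue, and in *C. lepadiformis* both are highest in dormant tissue, at 52.5 and 53.6.

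Ratios between members of 1 stage do not depend on how stages were scaled. In *P. zorritensis* there were 81.2 HIF1A transcripts per EGLN1 transcript in dormant tissue, against 26.2 to 38.5 in the other stages. HIF1N per EGLN1 likewise was 5.50 in dormant tissue and 2.10 to 2.47 elsewhere. With i3 as the only HIF1N transcript it was 3.22 in dormant tissue and at most 2.34 elsewhere. HIF1A per HIF1N, by contrast, stayed between 11.2 and 16.4, with 14.8 in dormant tissue, when both HIF1N transcripts were counted. That evenness depended on i4. Dormant tissue had 2.71 to 3.01 times the HIF1A of the other stages but only 1.62 to 2.03 times the i3. HIF1A per i3 was therefore highest in dormant tissue. HIF1A and HIF1N thus both stood higher relative to EGLN1 in dormant tissue. Against the sum of both enzymes, HIF1A was 12.5 in dormant tissue and 7.87 to 11.1 elsewhere. With the sheet's transcripts alone that ratio was 3.55 in dormant tissue and 1.04 to 1.64 elsewhere.

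In *C. lepadiformis* the ratios followed another order. HIF1A per EGLN1 was 9.72 in stolons, 6.97 in pre-buds, 6.87 in dormant tissue, 4.42 in zooids and 3.60 in germinating tissue. HIF1A per HIF1N was lowest in dormant tissue, at 6.73, and highest in germinating tissue, at 15.9. HIF1N per EGLN1 was 1.02 in dormant tissue, 0.793 in stolons, 0.549 in zooids, 0.545 in pre-buds and 0.226 in germinating tissue. HIF1A was more abundant than the summed enzymes in all stages of both species, by 2.85 to 5.42 times in *C. lepadiformis*.

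**Figure D3:**
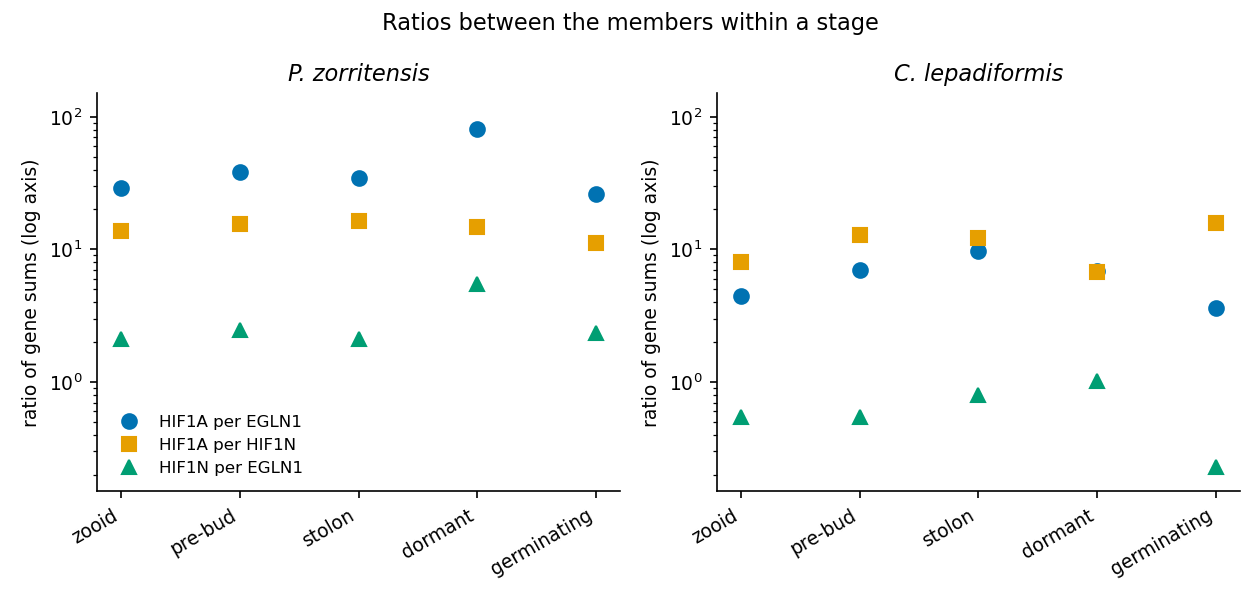
Points give the ratio of 2 gene sums within a stage (y axis, log scale) for the 5 stages (x axis), *P. zorritensis* left and *C. lepadiformis* right; scaling between stages cancels out. The dormant *C. lepadiformis* point of HIF1A per EGLN1 (6.87) lies behind that of HIF1A per HIF1N (6.73). In dormant *P. zorritensis* HIF1A per EGLN1 is 81.2 and HIF1N per EGLN1 is 5.50, both above every other stage. HIF1A per HIF1N stays between 11.2 and 16.4 over the 5 stages of that species, with both HIF1N transcripts counted.

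The member differences were set beside those of all genes, which were not limited to the pairs of the sheet from which the members came. A gene was counted as higher in dormant tissue where log2(mean + 1) differed by at least 1, which is 2-fold, and the higher mean was at least 5. In *P. zorritensis* HIF1A and HIF1N, 2 of the 3 members, were higher than in zooids, where 19.1% of 14957 genes were. The same 2 were higher than in pre-buds (16.6% of genes), stolons (18.8%) and germinating tissue (14%). With equal totals none of the 3 passed, and 6.28% to 6.92% of genes did. The place of HIF1A among all genes moved less. As deposited 7% to 11.5% of genes had a difference as large, and with equal totals 6.52% to 10.2%. Rescaling shifts the log2 differences of all genes nearly alike, so this place could hardly move. It therefore does not show that the difference is free of the scaling.

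In *C. lepadiformis* HIF1A and HIF1N were also the 2 members that were higher than in zooids (15.5% of genes), pre-buds (6.73%) and germinating tissue (6.59%), and none was higher than in stolons (3.61%). Against pre-buds HIF1A passed and EGLN1 missed by very little, at 1.00 and 0.997 on the log2 scale, and EGLN1 passed with equal totals. A difference from germinating tissue as large as that of HIF1A, 1.52, was seen in 2.47% of genes.

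A dormancy score, log2(mean + 1) in dormant tissue minus its average over the other 4 stages, gives 1 value per gene. In *P. zorritensis* it was 1.51 for HIF1A, 1.42 for HIF1N and 0.15 for EGLN1, and 12.6% of 16726 genes scored at least 1 and 17.6% at most -1. With equal totals these scores were 0.64, 0.56 and -0.66, so no member reached 1 and EGLN1 was below 0. In *C. lepadiformis* it was 1.71 for HIF1N, 0.96 for HIF1A and 0.68 for EGLN1, and 3.97% of 11222 genes scored at least 1 and 8.15% at most -1. There the score of HIF1A was 1.09 with equal totals. The median gene scored -0.18 and -0.08.

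**Figure D4:**
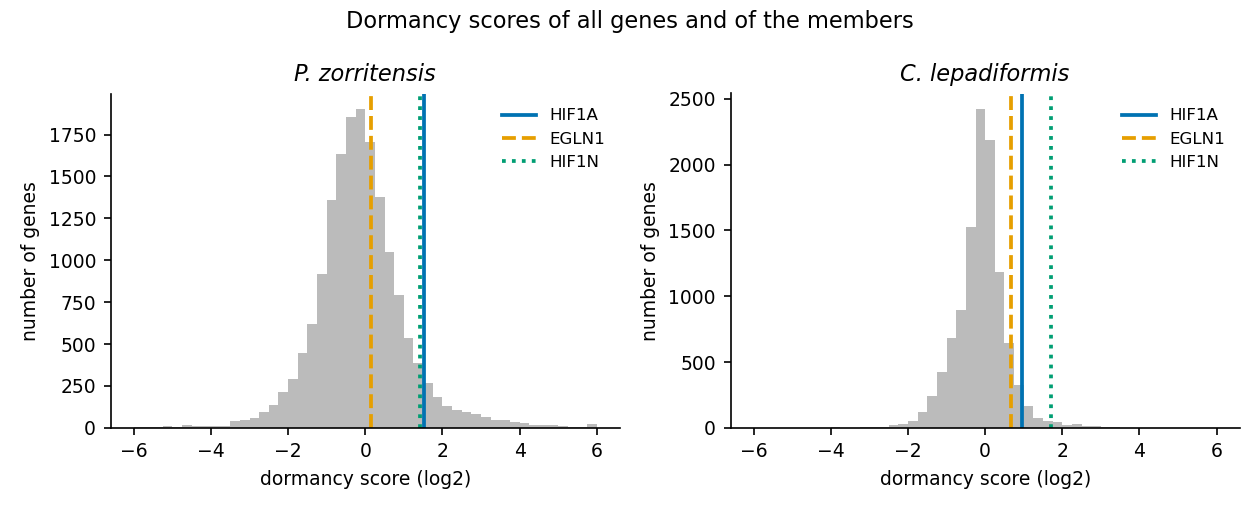
Grey bars count genes (y axis) by dormancy score (x axis, log2, values past 6 in either direction drawn in the end bars), among genes with a mean of at least 5 in some stage; lines mark the 3 members. In *P. zorritensis* the lines of HIF1A and HIF1N lie close together at 1.51 and 1.42, past 93% and 92.3% of genes, and in *C. lepadiformis* HIF1N is farthest right at 1.71, past 98.6%. The scores are as deposited, and with equal totals the *P. zorritensis* lines would stand at 0.64, 0.56 and -0.66 (EGLN1).

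The pattern of each member over the 10 stage means of both species, centred within a species, was compared with that of 3013 other pairs with a human name and a mean of at least 5 in some stage of both. The genes share libraries and stage scaling, so these correlations are a description of 10 means without a test. HIF1A was most like CIR1, a transcriptional corepressor (Pearson r = 0.964), TPST2, which sulfates tyrosines (r = 0.947), and ASH1L, a histone methyltransferase (r = 0.926). CIR1 had 62.6 scaled TPM in dormant *P. zorritensis* against 32.9 to 40.3 elsewhere, and 47.5 in stolons and 42.6 in dormant tissue of *C. lepadiformis*, so its differences were smaller than those of HIF1A. HIF1N was most like VPP1, a subunit of the proton pump of acidic organelles (r = 0.954), DNJB6, a chaperone partner (r = 0.924), and HIF1A itself (r = 0.908). With ranks within each species in place of levels, HIF1A and HIF1N correlated at 0.4. EGLN1 was most like S35E1, a solute carrier (r = 0.909), and PPME1, which demethylates protein phosphatase 2A (r = 0.838), was also among its likest pairs. Only 0.232% of pairs reached r = 0.8 with EGLN1, against 1.1% with HIF1A and 0.763% with HIF1N.

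Further genes of the pathway were taken from 6 lists by role, with 164 human entry names, of which 44 pairs were found in the sheet. ARNT, VHL and the elongins ELOB and ELOC were not among these 44 and were not analysed here, so the partner of HIF-alpha and its ubiquitin ligase are not described. Because the sheet holds only pairs called up and down, and several of these genes were ones the study singled out, the lists are no independent evidence. The 12.6% and 3.97% of all genes that scored at least 1 are not a matched background for the counts. They include genes outside the sheet, and the share among the pairs of the sheet was not computed.

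HIF subunits and PAS partners numbered 2 pairs, of which none scored past 1 or -1, with medians of 0.28 and 0.37. NPAS3, a brain PAS factor in mammals, scored 0.38 in *C. lepadiformis*. The *P. zorritensis* score was 0.31 as deposited and -0.51 with equal totals, so its direction depended on the scaling. A pair named AHR, a ligand-bound PAS factor, in *C. lepadiformis* alone scored 0.36 there. Its *P. zorritensis* transcript lay in the same Trinity gene as that of CBP/EP300, the coactivators of HIF, so the sum there (score 0.24, or -0.61 with equal totals) belongs to neither alone. In *C. lepadiformis* CBP/EP300 scored 0.28.

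Turnover and co-activation of HIF-alpha was covered by 3 pairs, of which 1 scored at least 1 in *P. zorritensis*. None did in *C. lepadiformis*. The medians were 0.24 and 0.04. With equal totals no pair scored at least 1 in *P. zorritensis*, where HS90B went from 1.52 to 0.65 and the median was -0.61. As deposited and with equal totals, the *P. zorritensis* median is the score of the gene shared with AHR. On the sheet's transcripts alone, with the deposited scaling, the median was 0.85. HS90B, a chaperone that holds HIF-alpha in mammals, had 987 scaled TPM in dormant *P. zorritensis* and 208 to 637 elsewhere. The *C. lepadiformis* gene had 481 when dormant and 275 to 622 at other stages. PSMD4, a ubiquitin receptor of the proteasome, had 24.2 in dormant *P. zorritensis*, its lowest stage, against 30.8 to 50.2.

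The glucose uptake and glycolysis genes, some of which HIF is known to switch on in mammals, had the highest median of the 6 lists in *P. zorritensis*. There 6 of 10 pairs scored at least 1 and 3 at most -1, with a median of 1.14. In *C. lepadiformis* 2 scored at least 1 and 0 at most -1, with a median of 0.23. The sugar transporter pair GTR5/GTR1 went opposite ways, at -1.27 in *P. zorritensis* and 1.85 in *C. lepadiformis*. F264/F261, a regulator of glycolysis, scored -1.21 and 0.11. With equal totals 2 pairs, G3P and LDHB, still scored at least 1 in *P. zorritensis*, 3 scored at most -1, and the median was 0.28. G3P, the glycolytic dehydrogenase also known as GAPDH, had 2034 in dormant *P. zorritensis* and 129 to 798 elsewhere. The *C. lepadiformis* gene had 277 when dormant and 120 to 301 at other stages. LDHB, a lactate dehydrogenase, was highest in dormant tissue of both species, at 77.3 against 7.98 to 29.0 and at 167 against 48.7 to 162, although with equal totals stolons were highest in *C. lepadiformis*. HXK2, the hexokinase that traps glucose, had 144 in dormant *P. zorritensis* against 45.5 to 117, although with equal totals pre-buds were highest. Stolons of *C. lepadiformis* had 168 of HXK2 and dormant tissue 130.1, so these were its highest stages, as they were for HIF1A. A pair named MOT4, a lactate transporter, in *C. lepadiformis* alone had 1.23 in dormant *P. zorritensis* against 10.9 to 47.8.

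Among the 11 pairs of upstream kinases and translation, 9 and 10 had a mean of at least 5, none scored at least 1 in either species, and 1 scored at most -1, in *P. zorritensis*. The medians were -0.25 and 0.17. With equal totals 4 pairs, KPCA/KPCB (protein kinase C), NFKB1, MTOR and its partner RPTOR, scored at most -1 in *P. zorritensis* and the median was -0.96. INSR, the insulin receptor, scored 0.95 and 0.15, and MKNK2, a kinase of the cap-binding factor eIF4E, scored 0.91 and 0.14. With equal totals their scores in *P. zorritensis* were 0.16 and 0.04. NFKB1, which can drive HIF1A transcription in mammals, had 23.0 in dormant *P. zorritensis*, its lowest stage, against 34.1 to 98.3. The *C. lepadiformis* NFKB1 had 40.3 in stolons and 37.2 in dormant tissue, against 16.5 to 26.3 in the others. MTOR, a nutrient-sensing kinase, scored -0.60 in *P. zorritensis* and was at 5.04 to 7.01 in all stages of *C. lepadiformis*.

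Other hypoxia targets numbered 6 pairs, of which 1 scored at least 1 and 1 at most -1 in *P. zorritensis* and 0 either way in *C. lepadiformis*, with medians of -0.02 and -0.18. With equal totals 1 scored at least 1 and 2 at most -1 in *P. zorritensis*, and the median was -0.58. A pair of stress-responsive genes was named NDRG3 in *P. zorritensis* and NDRG1 in *C. lepadiformis*. The *P. zorritensis* gene had 515 in dormant tissue against 82.1 to 192. The *C. lepadiformis* gene had 218 in dormant tissue against 132 to 425. A pair named TIE2, a receptor of vessel cells, in *C. lepadiformis* alone was highest in zooids, with 50.4 in *P. zorritensis* against 0.951 to 12.8 and 185 in *C. lepadiformis* against 3.56 to 8.05. NOS1, a nitric oxide synthase, likewise had 8.58 and 7.82 in zooids and no more than 2.32 and 0.359 in the other stages.

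The other 2-oxoglutarate oxygenases, enzymes of the same chemistry as EGLN1 and HIF1N, did not stand high in dormant tissue as a list. Of 13 pairs, 1 scored at least 1 and 2 at most -1 in *P. zorritensis*, with a median of -0.002. With equal totals 0 scored at least 1 and 5 at most -1, with a median of -0.83, and on the sheet's transcripts alone 0 scored at least 1. None scored past either limit in *C. lepadiformis*, where the median was -0.13. PAHX, which starts the oxidation of phytanic acid, was highest in zooids, at 30.7 in *P. zorritensis*, where other stages had 0.011 to 0.501. Zooids of *C. lepadiformis* had 38.6 and the other stages 7.82 to 11.3. PLOD3, a lysyl hydroxylase of collagen, scored -1.16 and 0.04, and TET2, which oxidizes methylated DNA, scored -0.85 and -0.13. JMJD6, a lysyl hydroxylase that is also in the list of hypoxia targets, scored -0.82 and -0.05. In *P. zorritensis* HIF1N, at 1.42, lay above all 13, of which the highest, ALKB6, scored 1.26. On its sheet transcript alone, i3, HIF1N scored 0.85, below 1 like all 13 pairs in that setting. With equal totals HIF1N scored 0.56 and ALKB6 0.42, and ALKB6 was then highest in germinating tissue.

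**Figure D5:**
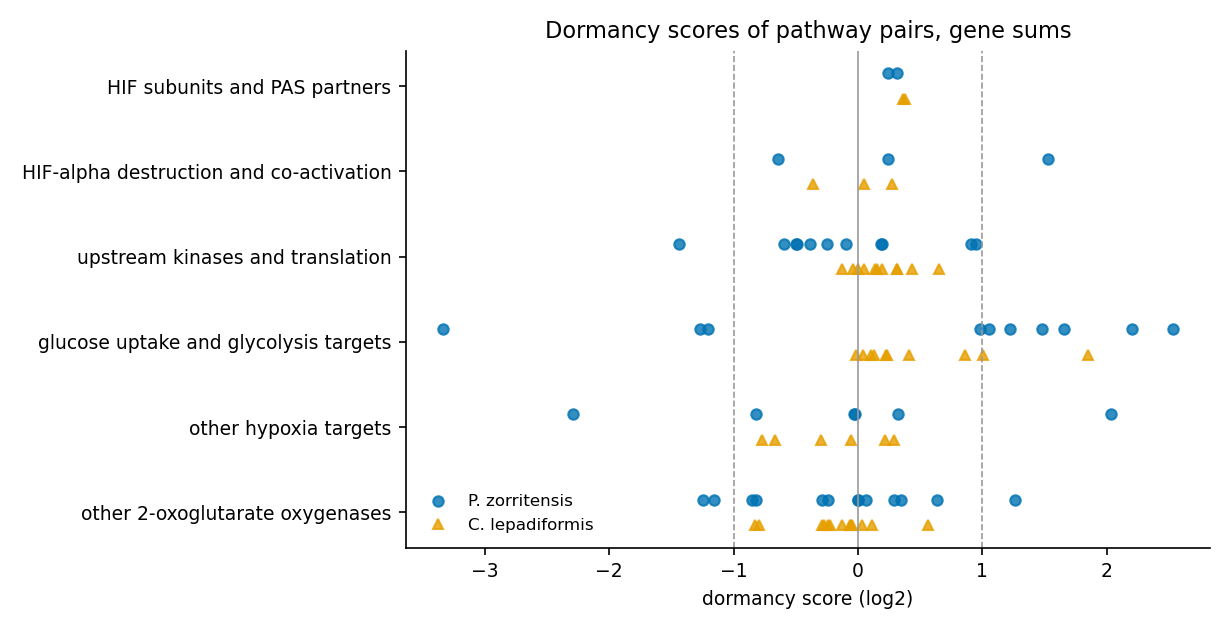
Each point is the dormancy score (x axis, log2) of 1 ortholog pair of the 6 lists (y axis), circles for *P. zorritensis* and triangles for *C. lepadiformis*; dashed lines mark -1 and 1. Glycolysis pairs of *P. zorritensis* run from -3.34 to 2.53, and oxygenase pairs of *C. lepadiformis* all lie between -1 and 1.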

How the data were processed

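The signal values were made by the authors, who quantified transcripts with Kallisto 0.46.0 as TPM on a Trinity assembly of all stages of a species, scaled them by TMM across libraries and averaged them over the samples of a stage before they were deposited. Reads were first cleaned with Rcorrector, Trim Galore, Bowtie2 and FastQC, similar transcripts were collapsed with cd-hit, and transcripts under 5 TPM were removed, so weak isoforms may be missing from a sum. Ortholog pairs, names and IDs (an other kind of column) came from the sheet deposited by the authors. Its 4 columns of stages called up or down hold the authors' own comparisons and were not used.

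Transcripts were summed by Trinity gene with Python 3.11.15, numpy 2.4.6, pandas 2.3.3 and scipy 1.17.1. Figures used matplotlib 3.10.9. Differences are of log2(mean + 1), which understates changes of low genes. The lists were HIF subunits and PAS partners, turnover and co-activation, upstream kinases and translation, glycolysis, other hypoxia targets, other oxygenases, and the zooid markers cilia and digestion. The fold counts were tried on simulated data with planted changes well past 2-fold, little noise and no general shift between stage totals. That checks the code and cannot show how scaling affects the counts. The members, lists and alternatives were chosen with earlier results of these data known. Named are all members, up to 4 pairs per list with the largest absolute mean score over both species, and the 3 likest pairs of each member, of which 1 is not reported here. ALKB6, KPCA/KPCB, RPTOR, GTR5/GTR1, F264/F261 and AMYP were named, and the digestion list was summed without AMYP, after their values were seen. Depth per sample is unknown, and no test between stages was possible.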

Additional observations from a re-analysis of the deposited data

How the results depend on the processing

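No paired analysis was possible because each stage was deposited as 1 mean, and for the same reason no replicate could be left out. Of 186 member values recomputed under other settings, 166 moved by less than 1.5-fold, 20 moved by more, 4 changed sign, and none that was past 2-fold changed sign. Equal stage totals moved 17 of 30 values, and the sheet's transcript alone moved 3 of 30. The sheet's transcript is the whole gene where a gene has 1 transcript, so those values could not move. Summing whole Trinity components altered only EGLN1 of *P. zorritensis*. The pooled count therefore does not measure how far the results depend on scaling. All 4 sign changes were of EGLN1 in *P. zorritensis* with equal stage totals. In that setting its differences of dormant tissue from zooids, pre-buds and stolons were -1.01, -0.36 and -0.68, and its score was -0.66. HIF1A of *P. zorritensis* then differed from zooids, pre-buds, stolons and germinating tissue by 0.40, 0.68, 0.50 and 0.97, with a score of 0.64. HIF1N differed by 0.30, 0.74, 0.64 and 0.57, with a score of 0.56. In *C. lepadiformis* the differences from germinating tissue became 2.17 for HIF1A, 1.22 for EGLN1 and 3.23 for HIF1N. On the sheet's transcript alone, HIF1A of *P. zorritensis* differed from germinating tissue by 2.22, and HIF1N from pre-buds and stolons by 0.80 and 0.99, because the other transcripts were left out. Pseudocounts of 0.1 and 5, summing whole Trinity components, a median log2 ratio of 0 and leaving zooids out of the reference moved no member value by 1.5-fold. The median log2 ratios of the deposited stages were already -0.11 to -0.04 in *P. zorritensis* and -0.09 to -0.04 in *C. lepadiformis*. Setting them to 0 therefore could not move a value that far. Genes higher in dormant tissue than in zooids of *P. zorritensis* numbered 2857 at 2-fold, 1719 at 3-fold and 1048 with equal totals. Genes lower in dormant tissue than in zooids numbered 4257 as deposited and 10464 with equal totals, and the counts against the other stages of *P. zorritensis* shifted the same way (from 2046 to 4840 for pre-buds, 3037 to 6926 for stolons and 1590 to 3413 for germinating tissue). Against germinating *C. lepadiformis*, 590 genes were higher and 746 lower as deposited, and 2382 and 261 with equal totals. These shifts follow from the rescaling itself; which scaling is nearer to the RNA content of the tissues was not tested.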
